A study of Homo sapiens with 24 samples.

Results

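Ribosome biogenesis factors are the proteins that make and modify ribosomal RNA and assemble it with ribosomal proteins into the small and the large subunit. The genes described here are 50 such factors, chosen by name and matched by Ensembl identifier to gene symbols, and they are 50 of the 61533 genes in the exon count table. Each of the 50 matched 1 gene and passed the low-count filter. Newly transcribed RNA was measured by 4sU-seq, in which 4-thiouridine (4sU) is given to living cells so that RNA made while it is present can be pulled down and sequenced. The cells were U2OS, a human osteosarcoma line with very little glucocorticoid receptor (GR) of its own.

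The 3 stable lines expressed GR with a C-terminal HaloTag from a CMV promoter. The wt line carried unmutated GR, the SoF line carried K492A (a separation-of-function change that mainly reduces RNA binding), and the Ctrl line carried R470A (a control that binds DNA somewhat less well, as SoF also does). Each line was 1 sorted pool of cells, so the construct and the pool cannot be told apart. Dexamethasone, which activates GR, was added at 100 nM for 1, 2 or 3 h, the 0 h cells were given 0.01% ethanol, and 4sU was present at 200 µM in the last 1 h of every treatment. Each line and time had 2 libraries, which gave 12 groups, 24 libraries in all and 8 per line. Nothing in the sources used here says that the 2 libraries of a group came from separate cultures, so p-values measure the spread between these libraries, which may be technical. The methods of the study state that the biotin labelling and pulldown handled replicates of a sample as pairs. If a pair is the 2 libraries of a group, the pulldown cannot be told apart from line and time. The spread within a group would then leave out differences between pulldowns. The time of ethanol exposure is not stated, and time since the medium change cannot be told apart from time in dexamethasone.

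Libraries held 8106036 to 15820806 counts. FKBP5, a GR target gene, was higher at 3 h than at 0 h in all 3 lines, by 3.11 (wt), 3.68 (SoF) and 2.39 (Ctrl) on the log2 scale. NR3C1, the gene of GR itself, was counted together with the transgene. It was higher in the SoF and Ctrl lines than in the wt line by 1.89 (SE 0.41) and 2.18 (SE 0.42), beside every comparison of lines below. This is a difference in new RNA. The paper states that sorted fractions were picked so that nuclear GR protein, by immunofluorescence after dexamethasone, was alike in the lines. Of 10 osteoblast lineage markers, RUNX2 (51.5 to 158 CPM), SPARC, COL1A1 and ALPL were present, while COL1A2, TWIST1, SP7 and IBSP did not exceed 0.602 CPM. The other markers of this list, BGLAP and SPP1, were at most 1.32 and 3.12 CPM. Epithelial, blood and endothelial markers were at most 8.09 CPM.

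Ribosome production begins in the nucleolus, where RNA polymerase I copies the ribosomal DNA. Small nucleolar ribonucleoproteins (snoRNPs) guide the chemical modification of the transcript, box C/D particles adding methyl groups and box H/ACA particles making pseudouridine. The small-subunit processome folds and cuts the precursor, and separate sets of factors mature the small and the large subunit. Many of these genes are known targets of the transcription factor MYC. Here MYC itself fell from 0 h to 3 h by 1.15 in wt, 1.37 in SoF and 1.14 in Ctrl on the log2 scale (edgeR adjusted p at most 0.000285).

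All levels are CPM, counts put on a common library size and scaled by TMM, so they are shares: fewer cells of a type and less RNA per cell cannot be told apart. Before dexamethasone the 50 factors together held 0.425% to 0.530% of the counts of a library. Per kilobase of exon in the wt line at 0 h, the abundant nucleolar chaperone NPM1 was highest at 69.6 CPM per kb. NCL (nucleolin, which binds nascent ribosomal RNA) followed at 60.8 CPM per kb, and the replicate values of both overlapped. NOP56, a core protein of the box C/D particle, was next at 49.5 CPM per kb. The lowest was WDR12, a partner of BOP1 in large-subunit maturation, at 2.38 CPM per kb. The length covers all annotated exons of a gene, so this order depends on the annotation. In CPM alone WDR12 (22.9) was above RRP9 (16.3), LYAR (17.1) and GAR1 (20.4).

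The time course had the same outline in every line. The summed level of the 50 factors was 4274 to 5419 CPM in the 6 libraries at 0 h and 4375 to 5653 CPM in the 6 at 1 h. It was 5893 to 6865 CPM in the 6 libraries at 2 h and 5354 to 6039 CPM in the 6 at 3 h. All 2 h libraries therefore lay above all 0 h and 1 h libraries, and the 3 h libraries overlapped with those of every other time. Libraries of the same group did not always match at 0 h and 1 h. In the wt line at 1 h the sum was 4375 CPM in replicate 1 and 5653 CPM in replicate 2, and in the Ctrl line at 1 h it was 5630 and 4456 CPM. At 0 h replicate 1 was the higher library for 43 of the 50 factors in wt, 30 in SoF and 36 in Ctrl.

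**Figure D1:**
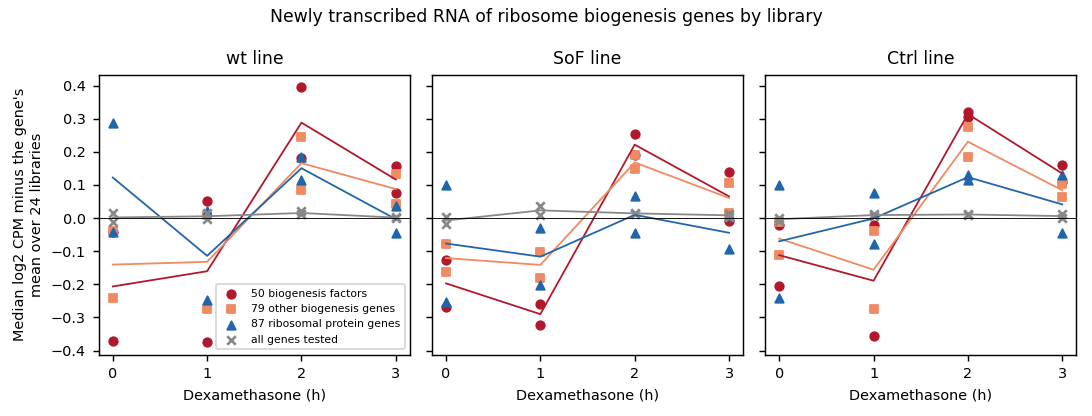
Each point is 1 library, with hours of dexamethasone on the x axis and, on the y axis, the median over a gene list of log2 CPM minus each gene's mean over the 24 libraries; lines join the group means. The 50 biogenesis factors lie at -0.37 to 0.05 in the 0 h and 1 h libraries and at 0.18 to 0.395 in the 2 h libraries, while the median of all genes stays near 0.

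Against 0 h, no factor was called at 1 h in any line (edgeR quasi-likelihood test, Benjamini-Hochberg adjusted p under 0.05 over 23651 genes). At that time 0.156% of all genes were called in wt (0.118% higher and 0.0381% lower), 0.165% in SoF (0.161% and 0.00423%) and 0.0465% in Ctrl, all of these higher (0.0465% and 0%). An unadjusted p under 0.05 was found for 2, 1 and 0 of the 50 factors, and DESeq2 also called 0 in each line.

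At 2 h, 13 of the 50 factors rose in wt, where 4.6% of all genes were called (3.39% higher and 1.22% lower). In SoF 8 rose beside 5.68% of all genes (4.2% higher and 1.48% lower), and in Ctrl 15 rose beside 7.95% (5.58% higher and 2.38% lower). No factor was called lower at 2 h in any line. On the log2 scale the 50 had a median change of 0.50 (wt), 0.41 (SoF) and 0.40 (Ctrl), and the median of all tested genes was between -0.02 and -0.01. In all 3 lines 4 factors rose, namely BOP1, RRP1, RRP1B and NOB1. A further 7 rose in 2 lines, 10 in 1 line and 29 in none. The counts rest on few libraries. In wt 1 factor was called without 0 h replicate 2 and 1 without 2 h replicate 2. In SoF 1 was called without 0 h replicate 2, 1 without 2 h replicate 1 and 3 without 2 h replicate 2. In Ctrl 1 was called without 0 h replicate 2, 5 without 2 h replicate 1 and 1 without 2 h replicate 2. BOP1 kept its call in wt without any 1 of the 4 libraries compared.

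BOP1 forms the complex with PES1 and WDR12 that processes large-subunit RNA, and its gene lies on the minus strand at chr8:144262045-144291438 (hg38). In the wt line it was at 33.2 and 26.2 CPM at 0 h, 23.5 and 28.8 CPM at 1 h, 54.6 and 90.4 CPM at 2 h, and 58.2 and 67.1 CPM at 3 h. In the SoF line it was at 27.3 and 26.8 CPM at 0 h, 21.4 and 19.2 CPM at 1 h, 69.4 and 63.0 CPM at 2 h, and 59.4 and 69.2 CPM at 3 h. In the Ctrl line it was at 33.1 and 23.9 CPM at 0 h, 25.5 and 28.8 CPM at 1 h, 87.1 and 85.9 CPM at 2 h, and 70.8 and 80.1 CPM at 3 h. Every library at 2 h and 3 h was above every library at 0 h and 1 h. The fold change from 0 h to 2 h was 2.43 in wt (log2 1.28, SE 0.20, adjusted p = 0.000484), and it was 2.44 in SoF and 3.01 in Ctrl. At 3 h the log2 change from the same 0 h libraries was 1.07 (SE 0.20) in wt, 1.25 (SE 0.20) in SoF and 1.39 (SE 0.20) in Ctrl.

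RRP1 and its paralog RRP1B are nucleolar proteins of large-subunit maturation, and their genes lie 93.4 kb apart on the plus strand of chromosome 21, at chr21:43789513-43805293 and chr21:43659560-43696079 (hg38). RRP1 in wt was at 37.7 and 25.9 CPM at 0 h, 54.9 and 65.0 CPM at 2 h, and 50.7 and 46.4 CPM at 3 h. RRP1B in wt was at 47.3 and 48.1 CPM at 0 h, 67.5 and 87.7 CPM at 2 h, and 83.5 and 71.9 CPM at 3 h. For both genes the libraries at 2 h and 3 h lay above those at 0 h. RRP1 rose at 2 h by 0.91 (SE 0.19) in wt, 0.96 (SE 0.20) in SoF and 0.97 (SE 0.20) in Ctrl. RRP1B rose at 2 h by 0.70 (SE 0.15), 0.57 (SE 0.15) and 0.61 (SE 0.15) in the same order. At 3 h RRP1B was called in all 3 lines and RRP1 in wt and Ctrl, with a change of 0.53 (SE 0.20, adjusted p = 0.0615) in SoF.

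NOB1 is the nuclease that makes the last cut of small-subunit RNA (chr16:69741871-69754926, minus strand). Its level in wt was 55.7 and 38.3 CPM at 0 h, 84.2 and 90.5 CPM at 2 h, and 77.1 CPM in both libraries at 3 h. In SoF it was 51.6 and 35.4 CPM at 0 h and 78.1 and 78.4 CPM at 2 h, and in Ctrl it was 54.5 and 36.7 CPM at 0 h and 80.6 and 96.4 CPM at 2 h. The 2 h libraries were the higher ones in each line without overlap. NOB1 rose at 2 h by 0.89 (SE 0.23) in wt, 0.84 (SE 0.23) in SoF and 0.95 (SE 0.23) in Ctrl. Its exons overlap those of an antisense transcript, NQO1-DT, and the use of strand in counting is stated only by the name of the table.

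**Figure D2:**
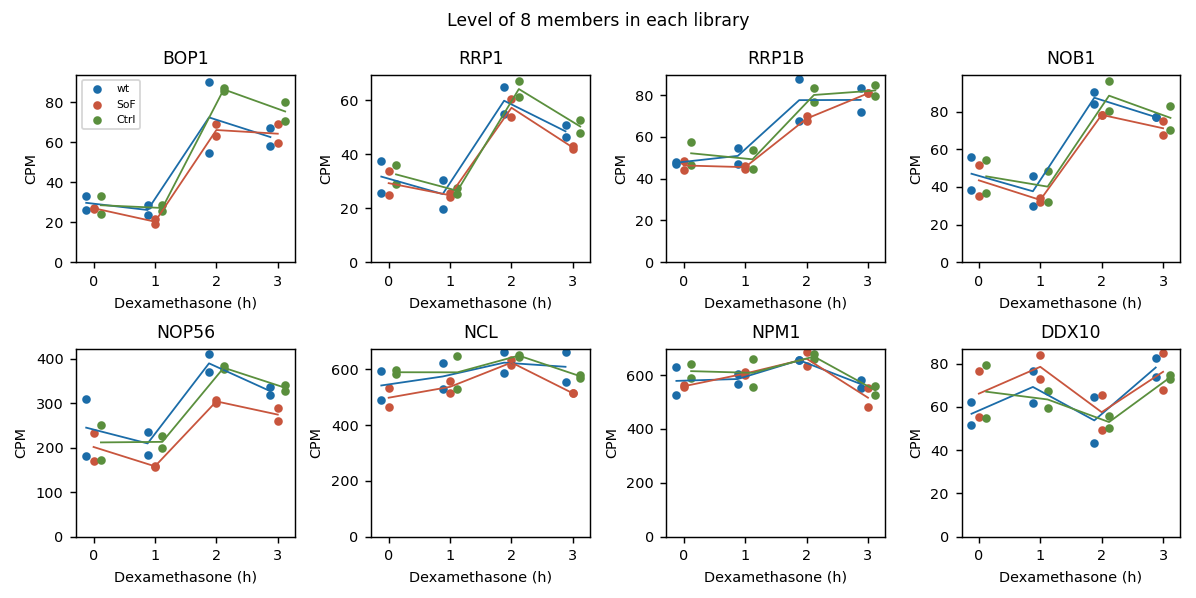
CPM of 8 biogenesis factors (y axis, from 0) against hours of dexamethasone (x axis); points are libraries coloured by line and lines join group means. BOP1, RRP1, RRP1B, NOB1 and NOP56 step up between 1 h and 2 h in every line, and DDX10 is at its lowest group mean at 2 h. NCL and NPM1 lie between 463 and 687 CPM, with NPM1 lower at 3 h (481 to 582 CPM) than at 2 h (635 to 687 CPM).

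At 3 h, 8 factors rose in wt, 7 in SoF and 8 in Ctrl, and none was called lower. Of all genes 10.7% were called in wt (6.6% higher and 4.12% lower), 19.3% in SoF (11.2% and 8.11%) and 14.2% in Ctrl (8.58% and 5.6%). The share of factors called (16% in wt, 14% in SoF and 16% in Ctrl) was thus nearer to the background than at 2 h. In SoF it was below the 19.3% of all genes called in either direction. All calls of factors were higher, and by that direction their share was above that of all genes in each line (6.6%, 11.2% and 8.58%). In wt 15.2% of the genes at or above the mean level of the lowest factor were called (10.9% higher and 4.28% lower). BOP1, RRP1B, NOB1 and UTP20 were called in all 3 lines, and these comparisons use the same 0 h libraries as those at 2 h. POLR1B, the second largest subunit of RNA polymerase I, was called in wt, with 57.6 and 54.8 CPM at 0 h and 111 and 92.2 CPM at 3 h (log2 change 0.85, SE 0.19). UTP20, a large scaffold of the small-subunit processome, rose by 0.56 (SE 0.15) in wt, 0.51 (SE 0.15) in SoF and 0.47 (SE 0.15) in Ctrl. The factors with the lowest values at 3 h were NOP58, DDX18, GNL2 and RRN3, at -0.33 to -0.24 in Ctrl, and none of them was called. Both 3 h libraries were above both 0 h libraries for 31 of the 50 factors in wt, 28 in SoF and 26 in Ctrl, against 26.6%, 30% and 28.9% of all genes. Both were lower for 0, 4 and 9 factors, against 28%, 28.7% and 27.2% of all genes. In wt 3 factors were called without 0 h replicate 2, 2 without 3 h replicate 1 and 4 without 3 h replicate 2. In SoF 2 were called without 0 h replicate 2 and 2 without either 3 h library. In Ctrl 13 were called without 0 h replicate 1, 1 without 0 h replicate 2, 1 without 3 h replicate 1 and 2 without 3 h replicate 2.

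From 1 h to 3 h, 9 factors rose in wt, 21 in SoF and 15 in Ctrl, and none was called lower. All genes called were 16% in wt (9.35% higher and 6.67% lower), 32.6% in SoF (17.6% and 15%) and 16.9% in Ctrl (10.1% and 6.81%). In wt 1 was called without 1 h replicate 1, 15 without 1 h replicate 2, 3 without 3 h replicate 1 and 4 without 3 h replicate 2. In SoF 7 to 10 were called without any 1 of the 4 libraries. In Ctrl 3 were called without 1 h replicate 2, 7 without 3 h replicate 1 and 4 without 3 h replicate 2.

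The step between successive hours was then tested over the mean of the 3 lines, in contrasts added after the time courses had been seen. From 0 h to 1 h no factor was called by edgeR or DESeq2, and 7 had an unadjusted p under 0.05, beside 1.28% of all genes called (0.731% higher and 0.55% lower). From 1 h to 2 h, 36 of the 50 factors rose and 1 fell, where 44.9% of all genes were called (22.7% higher and 22.1% lower). Of the 9233 genes at or above the mean level of the lowest factor, 56% were called (34.4% higher and 21.6% lower). The median step of the factors was 0.52 on the log2 scale and that of all genes was -0.04. Leaving out each of the 12 libraries at 1 h and 2 h gave 32 to 38 factors called, and 31 of the 37 were called in every one of those fits. From 2 h to 3 h, 1 factor rose and 3 fell, beside 10% of all genes (5.43% higher and 4.57% lower), with a median of -0.18 over the 50. The 4 were DDX10 (higher by 0.48, SE 0.12) and NOP16, NPM1 and RRP1, which fell by 0.49, 0.29 and 0.36. Over the 12 fits that each left out 1 library, DDX10 and NOP16 were called in 12, NPM1 in 5 and RRP1 in 0. Without any 1 of 7 libraries (wt 2 h replicate 1, wt 3 h replicate 2, SoF 2 h replicate 2, SoF 3 h replicate 1, both Ctrl 2 h libraries and Ctrl 3 h replicate 1), 2 were called.

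Of the 3 core proteins of the box C/D particle, NOP56 and the methyltransferase FBL rose from 1 h to 2 h and NOP58 was not called. NOP56 had a lowest, median and highest value of 157, 192 and 235 CPM over the 6 libraries at 1 h and 300.2, 373 and 410 CPM at 2 h, a step of 0.89 (SE 0.12, adjusted p = 5.1e-06). FBL was at 29.5, 36.2 and 41.3 CPM at 1 h and 47.9, 55.1 and 63.2 CPM at 2 h, a step of 0.60 (SE 0.10). In neither gene did the 2 times overlap. NOP58 was at 101, 126 and 149 CPM at 1 h and 101, 110 and 124 CPM at 2 h, which overlapped widely (-0.14, SE 0.10, adjusted p = 0.235). Against 0 h, FBL was not called at 2 h or 3 h in any line. NOP56 was called in Ctrl (0.84, SE 0.21, at 2 h) and had changes of 0.67 (SE 0.21) in wt and 0.59 (SE 0.21) in SoF that were not, and the difference between lines at 2 h was not tested.

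Of the 4 box H/ACA proteins, DKC1 (dyskerin, the pseudouridine synthase), NHP2 and NOP10 rose by 0.69 (SE 0.11), 0.54 (SE 0.10) and 0.44 (SE 0.12). GAR1 had a step of 0.23 (SE 0.10, adjusted p = 0.0741). DKC1 was at 74.3, 82.5 and 117 CPM at 1 h and 126, 148 and 158 CPM at 2 h, again without overlap.

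Of 7 nucleolar proteins with several roles, 5 rose in the step. TCOF1 (treacle, which helps RNA polymerase I to transcribe) was at 113, 122 and 139 CPM at 1 h and 175, 198 and 220 CPM at 2 h, a step of 0.67 (SE 0.10). NOLC1, a partner of snoRNPs, rose by 0.73 (SE 0.11), LYAR by 0.56 (SE 0.15), GNL3 (nucleostemin) by 0.31 (SE 0.08) and the RNA helicase DDX21 by 0.30 (SE 0.11). The call of DDX21 was lost without some single libraries. The most abundant members of this group, NCL and NPM1, were not called in this fit. Both were called higher in a further fit, described below, that removed a trend with GC content. NCL was at 515, 545 and 648 CPM at 1 h and 586, 640 and 662 CPM at 2 h (0.16, SE 0.08, adjusted p = 0.13). NPM1 was at 557, 602 and 660 CPM at 1 h and 635, 657 and 687 CPM at 2 h (0.14, SE 0.08, adjusted p = 0.141). Both pairs of ranges overlapped. NPM1 has 49 pseudogenes named after it in the annotation, and how their shared reads were counted is not known.

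In the RNA polymerase I group, the subunits POLR1A, POLR1B and POLR1C rose and the initiation factor RRN3 did not. POLR1C, which is also a subunit of RNA polymerase III, was at 47.1, 51.0 and 61.0 CPM at 1 h and 83.1, 93.6 and 106 CPM at 2 h, a step of 0.81 (SE 0.10). POLR1B rose by 0.63 (SE 0.11) and POLR1A, the largest subunit, by 0.26 (SE 0.07). RRN3 was at 40.1, 47.7 and 52.5 CPM at 1 h and 41.4, 44.5 and 47.4 CPM at 2 h (-0.07, SE 0.08), so its values at 2 h lay within those at 1 h.

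In the small-subunit processome 7 of 11 genes rose and 1 fell. RRP9, which binds the U3 snoRNA, was at 9.31, 13.3 and 14.9 CPM at 1 h and 21.3, 24.8 and 31.7 CPM at 2 h, a step of 1.01 (SE 0.15). NOP14 rose by 0.74 (SE 0.11), WDR43 by 0.56 (SE 0.12) and WDR3 by 0.39 (SE 0.12). UTP20, UTP14A and HEATR1 rose by 0.26, 0.26 and 0.21, all with adjusted p above 0.02. Over 6 other fits of all libraries, UTP20 was called in 5, UTP14A in 2 and HEATR1 in 3. These 3 genes and WDR3 also lost the call without some single libraries. UTP15, WDR36 and WDR75 had steps of -0.10 to 0.01 and were not called.

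DDX10, a helicase of the processome, was the 1 factor that fell. In wt it was at 61.9 and 76.7 CPM at 1 h and 43.1 and 64.4 CPM at 2 h, in SoF at 73.0 and 84.2 and then 49.5 and 65.7 CPM, and in Ctrl at 67.4 and 59.6 and then 55.9 and 50.2 CPM. The 2 times did not overlap in SoF and Ctrl but did in wt. The step was -0.36 (SE 0.12, adjusted p = 0.0189), and at 3 h the 6 libraries were at 67.7 to 84.8 CPM, all above the 65.7 CPM of the highest library at 2 h. The call was lost without any 1 of 6 of the 12 libraries. DDX10 spans 276 kb, the longest gene of the 50, whose median span is 23.0 kb.

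Of 5 late factors of the small subunit, NOB1, RRP12, TSR1 and BYSL rose, by 1.20 (SE 0.13), 0.89 (SE 0.12), 0.53 (SE 0.09) and 0.50 (SE 0.10), and LTV1 did not (0.05, SE 0.10). In the large-subunit group 12 of 16 rose. After BOP1 (1.61, SE 0.12, a fold of 3.06) and RRP1 (1.24, SE 0.12) came PPAN at 0.96, the RNA methyltransferase NOP2 at 0.91, RRS1 at 0.86 and NOC2L at 0.78. PPAN shares exons with the readthrough gene PPAN-P2RY11, so its own level is uncertain. PES1 and WDR12, the partners of BOP1, rose by 0.62 (SE 0.10) and 0.48 (SE 0.11). GNL2, BRIX1, NOC3L and the helicase DDX18 were not called, at -0.13 to 0.15.

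**Figure D3:**
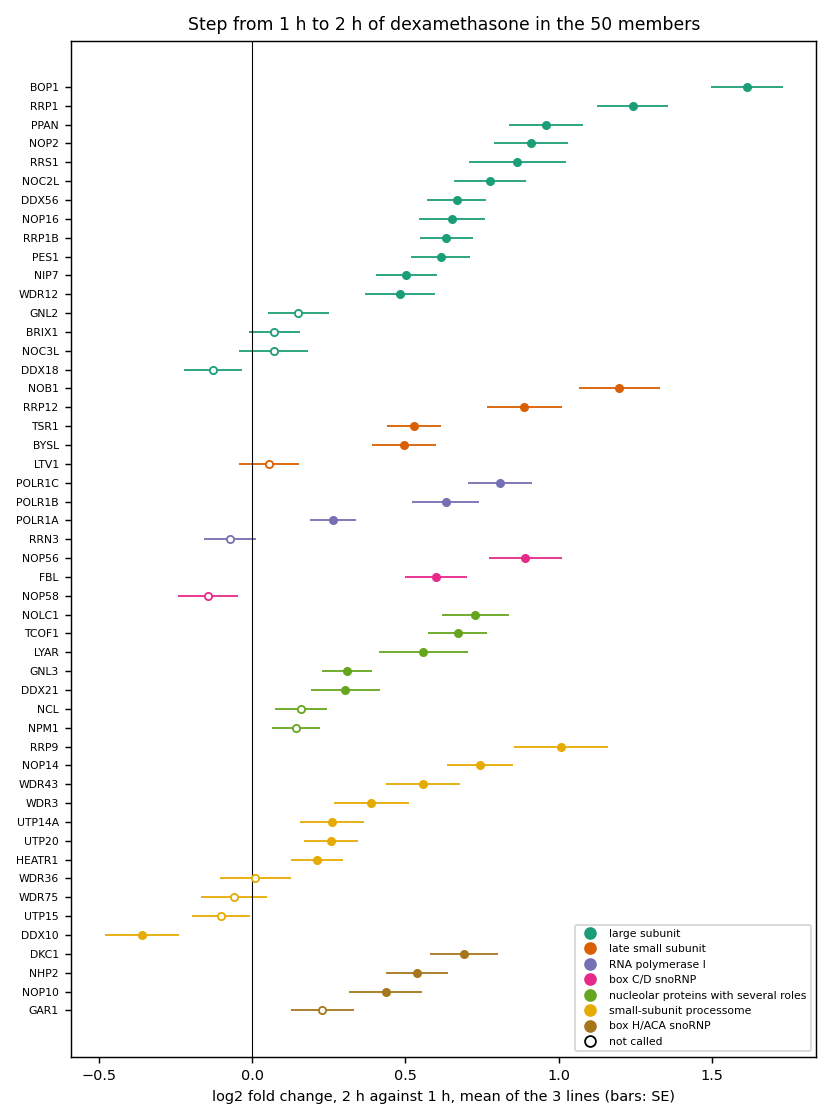
log2 fold change from 1 h to 2 h of dexamethasone, averaged over the 3 lines (x axis), for each of the 50 factors (y axis) coloured by role; bars are standard errors and open points are genes not called. Every role group has genes called higher, from 0.21 (HEATR1) to 1.61 (BOP1), and DDX10 at -0.36 is the 1 gene called lower.

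The step was also measured in other genes of the pathway. Of 79 further ribosome biogenesis genes, 52 rose and 4 fell from 1 h to 2 h (70.9% called), with a median of 0.36. Against 0 h at 2 h, 12 rose in wt, 9 in SoF and 16 in Ctrl, with medians of 0.31 to 0.32. Of 87 cytosolic ribosomal protein genes tested, whose products the factors assemble, 34 rose and 3 fell in the step, with a median of 0.16. In either direction 42.5% of these genes were called, no more than the 44.9% of all genes. By direction their calls were mostly higher, while those of all genes were nearly even (22.7% higher and 22.1% lower). Against 0 h none of these 87 was called at 2 h in any line, and 1 was called, lower, at 3 h in each.

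The size of the step followed base composition. The Spearman correlation between the step and the GC content of a gene's transcripts was 0.82 over the 50 factors and 0.53 over 23580 tested genes. These genes were measured in the same 12 libraries, so the correlation describes them and is given with no p. The 36 factors that rose had a median GC content of 51.5% (40.2% to 65.5%), and the 13 that were not called had a median of 40.4% (37.8% to 46.3%). BOP1 was the member with the highest GC content. The step from 0 h to 1 h ran the other way, with a correlation of -0.84 over the 50 factors and -0.47 over all genes. A further fit, chosen after the data had been seen, removed each library's trend with GC content. In it 47 factors rose from 1 h to 2 h and none was called lower, beside 38.6% of all genes called in either direction. The 47 included NCL (0.32), NPM1 (0.48), RRN3, GAR1, UTP15, WDR36, WDR75, LTV1, GNL2, BRIX1, NOC3L and DDX18, which the main fit had not called. BYSL, NOP58 and DDX10 were not called in it. Contrasts between factors of a role group, as given above, therefore depend on whether this trend is kept. At 2 h against 0 h the same fit called 22 factors in wt (6.57% of all genes), 14 in SoF (6.17%) and 13 in Ctrl (6.36%).

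**Figure D4:**
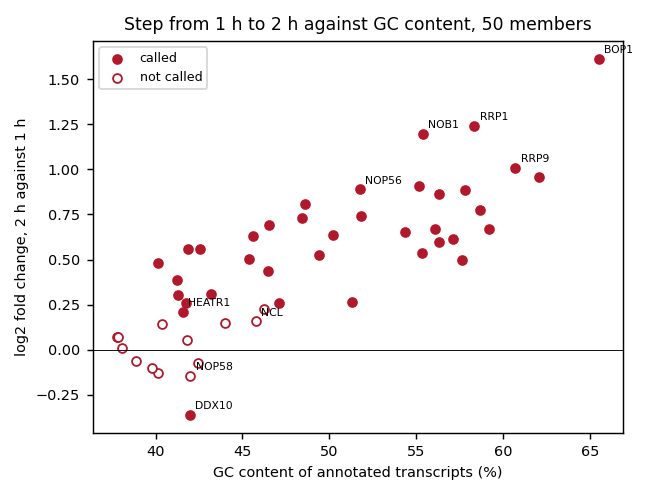
GC content of each factor's annotated transcripts in percent (x axis) against its log2 fold change from 1 h to 2 h over the 3 lines (y axis); filled points are called genes. The 13 genes not called lie between 37.8% and 46.3% GC, and BOP1 at 65.5% has the largest step of the 50.

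The promoters of 42 of the 50 factors matched the RefSeq table (GRCh38.p14, 250 bases before to 50 after each gene's start), and those of NOP58, NOLC1, TCOF1, RRP12, BOP1, RRS1, RRP1B and DDX18 were not analysed here. The E-box CACGTG, the letters that MYC can bind, was found in 13 of the 42 (30.95%), in 9.70% of the 13004 promoters of tested genes and in 7.44% of all 27305 promoters. The ETS letters CCGGAAG were found on either strand in 18 of the 42 (42.9%), in 17.5% of promoters of tested genes and in 10.7% of all. GGGCGG, the GC box, was found on either strand in 31 (73.8%, against 66.5% and 44.6%). AGAACA, a half-site of the GR response element, was found on either strand in 7 (16.7%, against 9.77% and 14.9%), and the full element, AGAACA followed by any 3 bases and TGTTCT, in 0, against 1 of all 27305. No matches of different motifs overlapped in the 42. A match is a description of these letters only.

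Of the 13 factors with it 10 rose, with a median step of 0.50, and of the 29 without it 20 rose, with a median of 0.48. The promoters of 5 factors are shown because they carry these letters and differ in the step. POLR1B, DDX56, UTP20 and NOP10 rose in the step and WDR36 did not, in the fit that kept the GC trend. The ETS letters are found in WDR36 as in POLR1B, DDX56 and NOP10, but not in UTP20. Starts here are those of RefSeq. The DDX56 stretch lies wholly inside the gene as bounded by the GENCODE annotation, and those of POLR1B, NOP10 and WDR36 lie partly inside. Each is given as the 130 bases before the RefSeq start on the gene's own strand, with E-box, ETS and GR half-site matches in capitals. In the order named, they lie at chr2:112541906-112542035 (plus), chr7:44573909-44574038 (minus), chr12:101279975-101280104 (plus), chr15:34343137-34343266 (minus) and chr5:111092218-111092347 (plus).
POLR1B: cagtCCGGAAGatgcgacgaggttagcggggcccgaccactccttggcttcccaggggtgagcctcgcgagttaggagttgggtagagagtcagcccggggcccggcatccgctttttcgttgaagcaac
DDX56: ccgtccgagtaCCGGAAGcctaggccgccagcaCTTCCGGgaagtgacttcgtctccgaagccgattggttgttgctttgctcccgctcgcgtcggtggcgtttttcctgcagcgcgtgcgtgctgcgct
UTP20: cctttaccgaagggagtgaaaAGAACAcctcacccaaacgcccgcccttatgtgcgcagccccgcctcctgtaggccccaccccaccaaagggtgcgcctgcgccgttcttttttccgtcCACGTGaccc
NOP10: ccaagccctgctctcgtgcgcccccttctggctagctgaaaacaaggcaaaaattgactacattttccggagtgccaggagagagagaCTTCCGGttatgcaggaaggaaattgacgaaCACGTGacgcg
WDR36: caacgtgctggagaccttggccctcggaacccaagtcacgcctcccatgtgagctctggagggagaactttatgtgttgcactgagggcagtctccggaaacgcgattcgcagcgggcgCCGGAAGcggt

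The E-box of UTP20 begins 10 bases before its RefSeq start. That of NOP10 begins 11 bases before its RefSeq start, inside the gene as bounded by the GENCODE annotation. The step of UTP20 was 0.26 and that of NOP10 was 0.44.

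Whether the construct altered the response was tested as the difference of the 3 h changes between lines. None of the 50 factors was called for SoF against wt, Ctrl against wt or SoF against Ctrl, where 0%, 0% and 0.0127% of all genes were called. DESeq2 called 0 of the 50 in each, and none of the 50 had an unadjusted p under 0.05. The standard error of a difference was 0.18 to 0.38 on the log2 scale, and the differences ran from -0.46 to 0.36. For BOP1 the response in SoF was higher than in wt by 0.17 (SE 0.28) and that in Ctrl was higher by 0.32 (SE 0.28). The smallest p belonged to NOP58, whose response in Ctrl differed from that in wt by -0.41 (SE 0.24, edgeR unadjusted p = 0.104). Differences of this size were not called with 2 libraries a group, and the power to detect them was not measured.

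Lines were also compared over their 8 libraries each, whatever the time. No factor was called for SoF against wt (8.02% of all genes, 4.57% higher and 3.45% lower) or Ctrl against wt (4.77%, 2.11% higher and 2.66% lower), although 4 and 3 of the 50 had an unadjusted p under 0.05 and DESeq2 called 0 in both. Without wt 1 h replicate 2, 1 factor was called in each of these comparisons, and without Ctrl 2 h replicate 2, 1 was called for Ctrl against wt. With time as an additive term, 6 factors were called for SoF against wt (3 higher and 3 lower, beside 29% of all genes) and 2 for Ctrl against wt (1 and 1, beside 18.8%), so the absence of calls depends on leaving time out. The smallest p for SoF against wt without that term was that of UTP15, higher in SoF by 0.24 (SE 0.09, adjusted p = 0.0797).

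For SoF against Ctrl, 1 factor was called (3.61% of all genes, 2.16% higher and 1.45% lower), GNL3, a nucleolar GTPase on the plus strand at chr3:52681156-52694497. In SoF it was at 143 and 136 CPM at 0 h, 136 and 140 CPM at 1 h, 163 and 175 CPM at 2 h, and 138 and 146 CPM at 3 h. In Ctrl it was at 102 and 99.3 CPM at 0 h, 106 and 96.9 CPM at 1 h, 131 and 142 CPM at 2 h, and 101 and 114 CPM at 3 h. The lines did not overlap at any time. GNL3 was higher in SoF by 0.40 (SE 0.09, adjusted p = 0.0103), and the call held without any 1 of the 16 libraries. With time as an additive term 6 factors were called (1 higher, GNL3, and 5 lower, beside 13.3% of all genes). It was lost, at much the same size, with only the 0 h libraries (0.47, adjusted p = 0.275), without replicate 1 or replicate 2 of every group, and with the GC trend removed (0.34, adjusted p = 0.144).

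Genes beside GNL3 differed between these lines as well. Of 18 other tested genes within 250 kb of it, 17 were higher in SoF than in Ctrl, with a median of 0.36, and 4 were called. The 4, named after their values were seen, were PBRM1 (0.42, SE 0.07), SPCS1 (0.37, SE 0.09), STIMATE (0.40, SE 0.11) and the readthrough gene STIMATE-MUSTN1 (0.40, SE 0.11). STIMATE and STIMATE-MUSTN1 overlap on the same strand and 4 of the 18 are snoRNA genes or transcripts inside GNL3, so these genes are not independent. In Ctrl against wt 16 of the 18 were lower and 5 were called lower, with a median of -0.33, and in SoF against wt the median was 0.02 with none called.

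**Figure D5:**
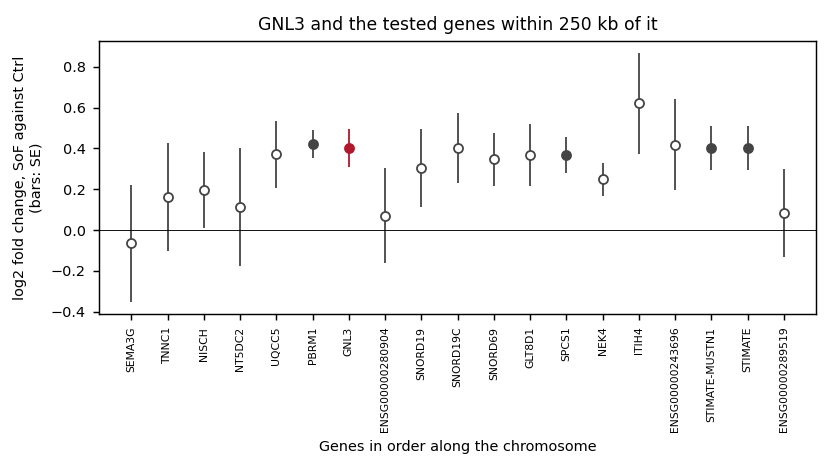
log2 fold change of SoF against Ctrl over 8 libraries each (y axis, bars are standard errors) for GNL3 (red) and 18 tested genes within 250 kb, in order along the chromosome (x axis); filled points are called genes. GNL3 at 0.40 lies among its neighbours, of which 17 are above 0.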

How the data were processed

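The 24 libraries of 4sU-seq were analysed, in 12 groups of 2. The authors trimmed reads with Trim Galore 0.6.6, aligned them to hg38 with STAR 2.7.3a, removed duplicates by molecular identifier with UMI-tools 1.1.2 and counted exon reads with featureCounts over GENCODE 39. The deposited values are raw counts per gene with no normalization. Symbols and positions came from GENCODE 44, which matched 61369 of 61533 identifiers (99.7%). Each library was its own column, and 0 columns of other samples were present.

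Counts were tested with edgeR 4.0.16 in R 4.3.3 (TMM, filterByExpr with a minimum count of 10, quasi-likelihood F test, Benjamini-Hochberg over all genes, called at adjusted p under 0.05). One fit of 12 groups covered 23651 genes of 48707 with a count, at a biological coefficient of variation of 14.2%. A fit of the 3 lines covered 21122 genes at 24.0%. The standard error was the log2 change divided by the square root of F. The edgeR and DESeq2 fits of 12 groups were tested on simulated counts for 1 comparison, wt at 2 h against 0 h. The other comparisons and fits were not tested in this way. DESeq2 1.42.0, other scalings, no filter, a replicate block, an additive time term and leaving out each library were the alternatives. The removal of a GC trend and the contrasts over the mean of the lines were chosen after the data were seen.

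The 50 factors and the gene lists were chosen with earlier results of these data known. Full statistics go to NCL, FBL and NOP56, to the 3 rising and 3 falling factors with the smallest p at 3 h in each line, to the 2 with the smallest p in each direction between lines and to the 3 with the smallest p among differences of response. The step from 1 h to 2 h is described for all 50. GC content was taken over all annotated transcripts of a gene. Of the factors, 18 overlap exons of an antisense gene, 5 those of a gene on the same strand, and 15 have named pseudogenes. Depth was 8106036 to 15820806 counts, which limits calls for low genes.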

Additional observations from a re-analysis of the deposited data

How the results depend on the processing

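With 2 libraries a group, counts of called factors moved with single libraries, while directions seldom did. Scaling by library totals called 7 factors in wt (4.03% of all genes) and 5 in SoF (5.29%) at 2 h against 0 h. It called 2 from 2 h to 3 h over the 3 lines (10.6%) and 1 for SoF against wt (9.85%). Without the low-count filter 15 were called in SoF at 2 h (3.86% of all genes) and 11 at 3 h (9.72%). With the GC trend removed 22 were called in wt (6.57% of all genes) and 14 in SoF (6.17%) at 2 h. In the same fit 14 were called in wt at 3 h (15.1%) and 0 for SoF against Ctrl (4.59%). An additive time term called 6 for SoF against wt (3 higher, 3 lower, 29% of all genes), 2 for Ctrl against wt (1 and 1, 18.8%) and 6 for SoF against Ctrl (1 and 5, 13.3%). The 0 h libraries alone called 0 for SoF against Ctrl (0.347% of all genes). The fits without replicate 1 (0.635%) or without replicate 2 (0.57%) of every group also called 0. The cause of each of these moves was not tested.

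Leaving out each library in turn gave 1 to 18 called in wt at 2 h, 2 to 10 at 3 h and 1 to 15 for 3 h against 1 h. The ranges were 1 to 12, 2 to 10 and 7 to 10 in SoF, and 1 to 19, 1 to 13 and 3 to 11 in Ctrl. Over the 3 lines they were 32 to 38 from 1 h to 2 h and 2 to 3 from 2 h to 3 h. They were 0 to 1 for SoF against wt and for Ctrl against wt. The shares of all genes called in the fits that left out 1 library are not given here. A loss of factors in those fits can therefore not be told apart from a loss of calls over all genes.

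Some changes near 0 turned sign, none of them called. For NPM1, wt, 3 h against 0 h, the value was 0.0773 with the GC trend removed and -0.135 to 0.0925 without single libraries. For DDX18, wt, 3 h against 0 h, it was 0.0136 with library totals, 0.106 with the GC trend removed and -0.0976 to 0.0934 without single libraries. With the GC trend removed it was 0.0341 for DDX18, SoF, 3 h against 0 h and 0.0388 for NOP58, SoF, 3 h against 0 h.

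The labels do not say that a replicate number marks a shared culture or day, and deviations of same-numbered libraries correlated above 0.1 in 21 of 66 pairs of groups, the lowest being -0.22. At 0 h the 3 pairs of lines did deviate together, at 0.39 to 0.57. The replicate block called 17 factors in wt (6.06% of all genes), 10 in SoF (7.04%) and 17 in Ctrl (9.91%) at 2 h, 8 (12.6%), 9 (21.7%) and 10 (16%) at 3 h, and 37 (47.1%) from 1 h to 2 h.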

Other observations

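Of the 50 factors 9 have snoRNA genes inside them. Such RNAs guide the modification of ribosomal RNA and are cut from introns of their hosts. The 9 are NOP56 (5 snoRNA genes), NOP58 (4), DKC1 (2), NCL (3), GNL3 (6), POLR1C (1), WDR43 (3), TSR1 (2) and PPAN (2). From 1 h to 2 h 7 of the 9 rose, with a median of 0.56, and 29 of the 41 other factors rose, with a median of 0.50. The steps of the hosts ran from -0.14 (NOP58) to 0.96 (PPAN).

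The pairs of factors that lie within 1 Mb of each other are NOP58 and WDR12 on chromosome 2, GNL3 and RRP9 on chromosome 3, NOB1 and NIP7 on chromosome 16, and RRP1 and RRP1B on chromosome 21. In the first pair the step from 1 h to 2 h was -0.14 (SE 0.10) for NOP58 and 0.48 (SE 0.11) for WDR12.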
